A study of Mus musculus with 4 samples.

Results

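SVEC4-10 cells that carried an insert-free lentiviral vector were compared with untreated SVEC4-10 cells. SVEC4-10 is a mouse endothelial line from lymph node vessels, transformed with SV40. The vector was pLENTI6/Block-iT with no hairpin insert, and transduced cells were kept under blasticidin, an antibiotic that blocks translation and kills cells without the resistance gene of the vector. For the untreated cells the labels give neither transduction nor selection. All cells grew in DMEM with fetal bovine serum, and the study also holds an array of cells with an anti-Mical2 hairpin and an array of cells with an anti-Mical3 hairpin in the same vector and under the same selection. Each of the 4 arrays held RNA pooled from 3 biological replicates, with 1 array per group, so no spread between replicates can be estimated and no p-value is given. Transduction, drug selection and the outgrowth of surviving cells all separate the vector cells from the untreated cells, and their parts cannot be told apart.

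A gene counted as higher or lower when its log2 level differed by at least 1 between the arrays, which is 2-fold, and its higher level was at or above 5.41, the median of the whole table and called the floor below. Of 18193 genes measured, 11849 reached the floor on the vector or untreated array. Of these, 691 (5.83%) met the rule: 386 (3.26%) were higher with the vector and 305 (2.57%) were lower. These shares are the background against which the counts of each gene list below are read. The levels of the chosen genes on these arrays are descriptions, since the rule used them.

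Cells recognise viral RNA and DNA with sensor proteins that lead to the release of type I interferon, and interferon in turn switches on antiviral genes through the factors STAT and IRF. The integrated stress response is a separate program in which a block of translation initiation raises the factor ATF4 and its target genes. Genes for actin and contractile proteins are governed by SRF with its MRTF partners, which respond to actin assembly, and genes of sterol synthesis by the SREBP factors. MICAL proteins, the study's subject, are enzymes that oxidise actin.

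The labels were checked with the genes the hairpins target. Mical2 was at 5.60 with untreated cells, at 5.14 on the array labelled insert-free vector, and at 5.53 and 6.08 on the arrays labelled Mical2 and Mical3 hairpin. Its other probe set was at 5.33, 4.64, 5.53 and 6.0. Mical2 was therefore lowest on the array labelled insert-free vector, and not on the one labelled with its own hairpin. Both of its probe sets lay near or under the floor of 5.41, so a knock-down of Mical2 may not be readable from these arrays. Mical3 was at 7.39, 7.29, 6.83 and 7.24 in the same order, lowest on the array labelled Mical2 hairpin, and Mical1 was at 7.59, 8.0, 8.0 and 6.82. The targeted genes thus do not follow the labels of the transduced arrays, and whether arrays were exchanged cannot be told from these files. Which transduced cells were on the array called the vector array below rests on its label, and so does every difference from the untreated array. Of 8 measured genes of the MICAL family 1 was called, Micall2, lower at 7.19 and 6.01.

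The lower genes reached further than the higher ones. A difference of at least 2 was seen for 29 higher and 70 lower genes, and a difference of at least 3 for 24 lower genes and for 0 higher genes. Most genes lay close to the diagonal: the median difference was 0.04 over the tested genes, and the outer 5% at either end lay beyond -0.72 and 0.84. Of the 305 lower genes, 73 were below the floor on the vector array, and 59 of the 386 higher genes were below it on the untreated array. In bulk RNA of this kind, fewer cells with a transcript and less of it in each cell cannot be told apart.

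**Figure D1:**
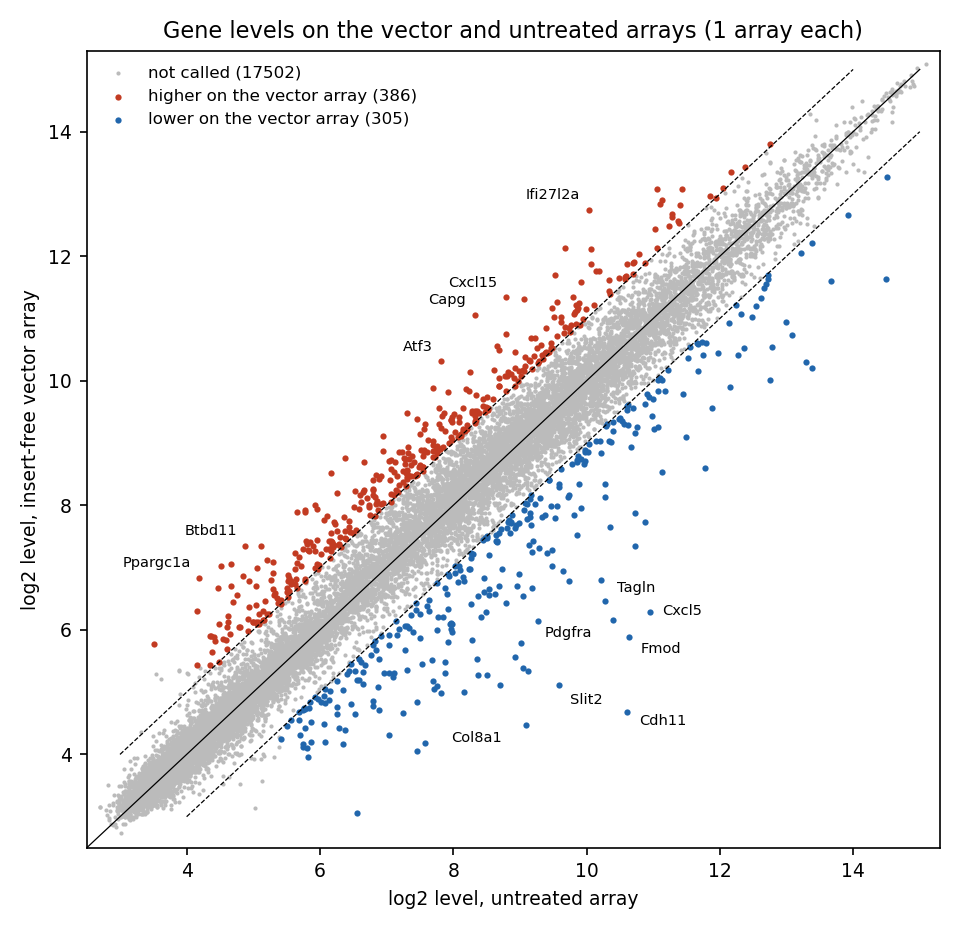
Log2 level of each of 18193 genes on the untreated array (horizontal) and on the insert-free vector array (vertical), 1 array each. Solid line: equal levels; dashed lines: a difference of 1; red points: 386 higher genes; blue points: 305 lower genes. The lower genes reach a difference of -5.92 (Cdh11) and the higher genes 2.74 (Capg).

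Apart from the choice of a probe set and the floor, the rule did not use the hairpin arrays, which carry the same vector per the labels. Over the 386 higher genes the median level was 7.38 on the untreated and 8.74 on the vector array, and it was 7.34 and 7.18 on the arrays labelled Mical2 and Mical3 hairpin. Over the 305 lower genes it was 8.82 with untreated cells and 6.98 with the vector, against 8.41 and 8.42 on the hairpin arrays. In both sets the medians of the hairpin arrays lay nearer to the untreated array than to the vector array. Since the genes were chosen for a gap between those arrays, this order is a description. Below, hairpin values are always given with the Mical2 label first.

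Of the lists examined, antiviral effectors held the most higher genes. Of 64 listed, 58 were measured and 55 reached the floor. Of these 25 were higher and 0 lower, against 3.26% and 2.57% of all tested genes, and the median difference of the 58 was 0.85 against 0.02 over all measured genes. Differences above 0 were seen for 51 of the 55. The median level of the 58 was 8.92 on the untreated array, 9.74 with the vector, and 8.36 and 8.78 on the hairpin arrays.

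The promoters of Oas3 and Ifit3 are shown because these were the called effectors with the largest differences that the RefSeq promoter table (GRCm38.p6) held. The window runs from 250 bases before to 50 bases after the start site, and capitals mark GAAA, any 2 bases and GAAA again, on either strand, which is the core of the interferon-stimulated response element bound by STAT and IRF factors. Oas3 lies at chr5:120777610-120777909 on the minus strand and holds 1 match. Ifit3 lies at chr19:34583279-34583578 on the plus strand and holds 2 matches.
Oas3: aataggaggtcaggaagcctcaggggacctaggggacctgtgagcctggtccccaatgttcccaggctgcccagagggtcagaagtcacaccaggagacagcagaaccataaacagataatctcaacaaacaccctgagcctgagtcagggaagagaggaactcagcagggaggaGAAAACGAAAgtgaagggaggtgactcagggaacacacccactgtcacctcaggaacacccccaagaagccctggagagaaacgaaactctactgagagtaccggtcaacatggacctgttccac
Ifit3: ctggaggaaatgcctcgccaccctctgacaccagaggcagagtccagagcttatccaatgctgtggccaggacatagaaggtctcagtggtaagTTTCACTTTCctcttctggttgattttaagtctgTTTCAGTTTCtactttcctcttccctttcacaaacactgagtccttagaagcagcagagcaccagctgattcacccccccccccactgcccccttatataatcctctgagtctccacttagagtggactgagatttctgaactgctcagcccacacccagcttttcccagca
Of 14452 measured genes with such a window, 437 (3.02%) held the motif. It was in 20 of 46 measured effectors with a window (43.5%), among them 10 of the 19 that were called higher (52.6%). Over all called genes it was in 27 of 316 higher ones (8.54%) and 9 of 228 lower ones (3.95%). A match is a description of these letters and shows no bound factor.

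Among the effectors that act on viral RNA, Ifit3 was at 10.07 on the untreated and 11.88 on the vector array, with 8.69 and 10.49 on the hairpin arrays, a vector difference of 1.81. IFIT proteins bind RNA that lacks a host-type cap. Ifit2 (9.62 and 10.94) and Ifit1 (12.05 and 13.10) were also higher, as was the exonuclease gene Isg20 (11.37 and 12.56), so that 4 of 7 measured genes of this role were called. The vector array was the highest of the 4 for all of them.

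Oligoadenylate synthetases make the messenger that activates RNase L, and 4 of 7 genes of this role were higher. Oas3 was at 4.84 on the untreated array, under the floor, and at 6.87 on the vector array, a difference of 2.03, with 5.01 and 5.00 on the hairpin arrays. Oas2, well above the floor, was at 8.66 and 10.56, a difference of 1.90, with 8.68 and 7.88 on the hairpin arrays. The differences of Oas1c (5.56 and 6.73) and Oasl2 (9.18 and 10.19) were smaller, at 1.17 and 1.01.

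Proteins that act at membranes or on budding gave 5 of 8 higher genes. The GTPase gene Mx2 stood at 6.95 on the untreated and 8.88 on the vector array, a difference of 1.93, with 6.77 and 6.88 on the hairpin arrays. Ifitm1, whose family hinders viral entry, was at 5.74 and 7.30. Rsad2 (viperin, which makes a chain-terminating nucleotide) was at 11.02 and 12.44, and Cmpk2, a mitochondrial nucleotide kinase, at 7.94 and 9.0. Bst2, the tether of budding virions, was at 12.76 and 13.80, a difference of 1.04. Mx2 thus stood out on the vector array alone, while Rsad2 was at 9.54 and 12.03 on the hairpin arrays, one below and one above the untreated level.

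Ifi27l2a, an interferon-induced gene of the ISG12 family, had the second largest difference of all higher genes, 10.03 against 12.75, with 11.11 and 11.28 on the hairpin arrays. All 3 arrays of transduced cells were therefore above the untreated array for this gene. In the same role of other induced genes, 7 of 25 measured were higher: Ddx60 (a helicase, 7.04 and 8.72), Slfn2 (7.25 and 8.55), Tor3a (9.85 and 11.13), Xaf1 (12.17 and 13.36), Helz2 (10.35 and 11.40) and Ifih1 were the others. Of the ADP-ribosylation genes 3 of 4 were higher, Parp14 by 1.14, Parp9 by 1.12 and its partner Dtx3l by 1.09. In the ISG15 and ubiquitin ligase role 2 of 7 were, Trim21 by 1.23 and Trim30a by 1.20.

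Sensors of nucleic acids and microbes were higher in 5 of 12 measured genes and lower in 1. The higher count was 2 with averaged probe sets and 3 without probe sets whose names end in _x_at, _s_at or _a_at. Dhx58, the RIG-I-like receptor LGP2, was at 7.70 on the untreated and 9.88 on the vector array, a difference of 2.18, with 6.05 and 7.55 on the hairpin arrays. Its other probe sets differed by 1.19 and 0.68. Zbp1, a sensor of Z-form nucleic acid, was at 7.32 and 8.84, though its other probe set differed by only 0.21. Tlr4 (7.55 and 8.79), Tlr3, the endosomal receptor of double-stranded RNA (7.50 and 8.65), and Ifih1, the RNA sensor MDA5 (10.69 and 11.71), followed. Nod1, a sensor of bacterial wall peptides, was lower, at 8.47 and 7.47. None of the 10 adaptors and kinases downstream was called, and their differences ran from -0.18 to 0.45, with Trim25 and Irf3 highest at 0.45 and 0.35.

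The interferon genes themselves were near or under the floor. Of 8 measured ligands 2 reached it and 0 were called: Ifnb1 was at 4.72 on the untreated and 5.69 on the vector array, with 4.68 and 4.83 on the hairpin arrays, a difference of 0.97 that missed the rule. The other ligands differed by 0.31 at most. None of 9 receptors and kinases was called, with Ifnlr1 highest (5.41 and 6.35). Among 12 transcription factors and feedback genes 3 were higher: Irf7, the factor that amplifies interferon induction (7.78 and 9.56, with 7.67 and 8.63 on the hairpin arrays), Usp18, the ISG15 protease that damps receptor signalling (11.11 and 12.84, with 10.01 and 11.28), and Stat2 (7.06 and 8.06, with 6.44 and 6.27).

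Other interferon-linked groups held fewer called genes. Of 10 measured immunity GTPases 3 were higher, and the list median of 0.84 was near that of the antiviral effectors: Irgm2 (9.56 and 11.27), Igtp (9.91 and 11.58) and Gbp7 (8.80 and 10.08), which act on vacuoles that hold pathogens. In antigen presentation the class I regulator Nlrc5 was at 5.65 and 7.89, a difference of 2.24, with 5.76 and 4.34 on the hairpin arrays. The peptide transporter gene Tap1 was at 6.89 and 8.42, with 0.23 for another of its probe sets, and the immunoproteasome gene Psmb9 at 8.68 and 10.05. None of 6 class I chain genes was called, with a median difference of 0.49, and H2-D1 differed most at 0.83. None of 5 class II genes was called and their median was -0.03. Of 15 measured retrovirus restriction factors the higher ones were Trim30a and Bst2, both also in the effector list, and Serinc5 had the lowest difference at -0.88. Ifitm6, a member of the same family as Ifitm1 and among the 15 largest higher differences, was at 4.47 and 6.68.

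**Figure D2:**
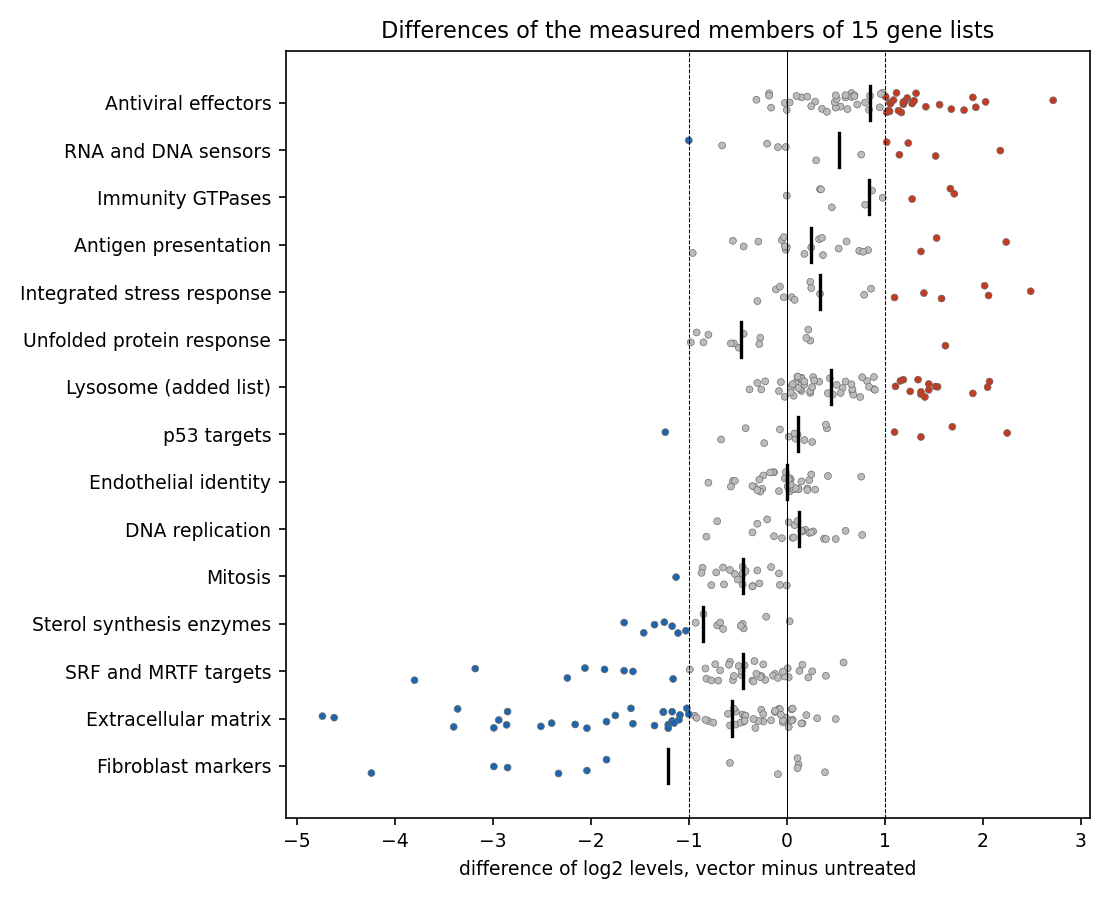
Difference of log2 levels, vector minus untreated, for the measured members of 15 gene lists; each point is 1 gene, with a random vertical offset. Red points were called higher, blue points lower, grey points not called; thick bars are list medians and dashed lines mark differences of 1 and -1. Antiviral effectors have a median of 0.85, extracellular matrix genes -0.56 and endothelial identity genes 0.01.

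Chemokines and cytokines divided by kind. Of 8 chemokines of the interferon type 3 were higher and 0 lower: Ccl5 (11.44 and 13.08, with 10.67 and 12.45 on the hairpin arrays), Ccl8 (6.21 and 7.74) and Cxcl11 (6.14 and 7.42), which draw lymphocytes and monocytes. Of 14 other chemokines 3 were lower and 1 higher. Cxcl5, a neutrophil attractant, was at 10.95 on the untreated and 6.28 on the vector array, a difference of -4.67, and at 4.85 and 3.89 on the hairpin arrays, so all 3 arrays of transduced cells were far below the untreated array. Cxcl1 was at 12.75 and 10.02, with 10.49 and 8.42 on the hairpin arrays, while another of its probe sets differed by -0.80. Cxcl15, a mouse chemokine best known from lung epithelium, was the higher one with 8.79 and 11.34, and the hairpin arrays were near the bottom of the scale at 3.92 and 3.94. Its other probe set differed by 2.53.

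Among cytokines the alarmin gene Il33 was lower (11.14 and 8.54, with 9.15 and 8.98 on the hairpin arrays), as was Il6 (8.68 and 6.71), and so was the chemokine gene Ccl20 (8.15 and 6.85). Of 15 NF-kB pathway genes 1 was called, Nfkbiz, a co-regulator of Il6, at 9.47 and 7.99, and another of its probe sets differed by 0.08. The median of that list was 0.00. Over the whole list of 37 cytokine genes 4 were higher and 5 lower, and 26 reached the floor.

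Genes of the integrated stress response were higher in 6 of 17, all of which reached the floor, and lower in 0, with a median difference of 0.34. Atf3, a stress-induced repressor, was at 7.82 on the untreated and 10.31 on the vector array, a difference of 2.49, with 8.31 and 8.37 on the hairpin arrays. Trib3, a pseudokinase that feeds back on ATF4, was at 10.06 and 12.12, with 9.88 and 9.89 on the hairpin arrays. Ddit3, which encodes the death-linked factor CHOP, was at 11.06 and 13.08, with 11.31 and 10.78. The vector array was more than 1 above each of the other 3 arrays for these genes.

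Chac1, which breaks down glutathione, was at 10.19 and 11.77, Nupr1 at 11.28 and 12.68 and Sesn2, a leucine sensor that restrains mTORC1, at 8.39 and 9.49. Other targets of the same factor were not called: Asns, asparagine synthetase, was at 12.24 and 12.48, Psat1 at 12.55 and 12.25 and Phgdh at 13.16 and 13.21. Atf4 mRNA itself was at 13.28 and 13.17; the factor is known to be set mainly by translation. Of 14 genes of the unfolded protein response 1 was called, Herpud1 (10.14 and 11.76), and the median was -0.47. Chaperones of the endoplasmic reticulum were level or lower, with Hspa5 at 13.60 and 13.33, Hsp90b1 at 13.11 and 12.19 and Pdia6 at 10.62 and 9.64.

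The promoters of Atf3 and Trib3 were read in the same way, a choice made after their values were seen. Capitals mark TGATGNAA on either strand, the composite element of C/EBP and ATF factors to which ATF4 binds. Atf3 lies at chr1:191183284-191183583 and Trib3 at chr2:152344011-152344310, both on the minus strand.
Atf3: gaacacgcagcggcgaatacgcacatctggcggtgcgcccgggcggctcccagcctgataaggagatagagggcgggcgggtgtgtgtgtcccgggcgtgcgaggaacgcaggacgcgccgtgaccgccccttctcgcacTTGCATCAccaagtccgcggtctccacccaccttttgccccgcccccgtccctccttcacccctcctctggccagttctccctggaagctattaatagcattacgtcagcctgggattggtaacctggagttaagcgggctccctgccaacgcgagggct
Trib3: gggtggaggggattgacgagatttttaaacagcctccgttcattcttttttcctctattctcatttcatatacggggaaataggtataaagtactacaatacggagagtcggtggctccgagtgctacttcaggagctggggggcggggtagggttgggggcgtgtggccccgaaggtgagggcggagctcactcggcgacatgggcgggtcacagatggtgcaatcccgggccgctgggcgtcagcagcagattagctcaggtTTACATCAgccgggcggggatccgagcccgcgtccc
Counted from the start site, the match of Atf3 begins at base -110 and that of Trib3 at base 15. The motif was in 4 of the 6 called genes of the list (66.7%), Chac1 and Nupr1 being the others. It was in 6 of 16 measured genes of the list with a window (37.5%) and in 399 of all 14452 windows (2.76%). Over all called genes with a window it was in 9 of 316 higher ones (2.85%), near the share of all windows, and 3 of 228 lower ones (1.32%).

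Of 17 measured p53 targets 4 were higher and 1 lower. Trp53inp1, a gene of p53-linked autophagy and death, was at 9.06 and 11.31, with 9.96 and 8.68 on the hairpin arrays. Gadd45a, a growth arrest gene that stress factors also induce, was at 9.48 and 11.17. Cdkn1a, the cell cycle inhibitor p21, was at 9.88 and 11.25, and here the hairpin arrays were equally high at 11.19 and 11.32. The 4th was Sesn2, and Fas, a death receptor gene, was lower (8.66 and 7.42). Among targets that were not called, Mdm2 was at 9.81 and 9.92 and Ccng1 at 12.24 and 12.26. SV40 large T antigen is known to bind p53.

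**Figure D3:**
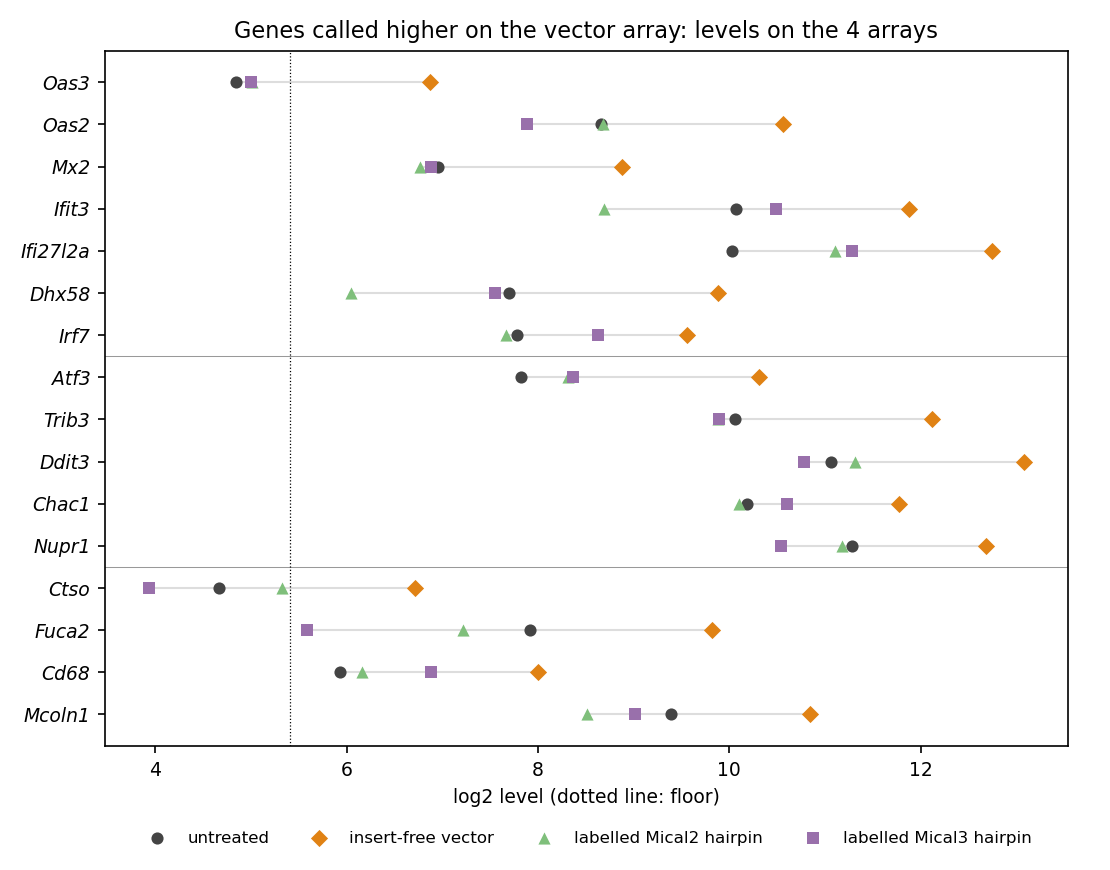
Log2 levels of 16 genes called higher, on each of the 4 arrays (1 array per group): interferon-linked genes (top), stress response genes (middle) and lysosome genes (bottom). The vector array (orange diamonds) is the highest of the 4 for each gene, and the dotted line is the floor of 5.41.

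Lysosomal genes were a further group among the higher genes, in a list added after the values were seen. Of 62 measured, 57 reached the floor, 15 were higher and 0 lower. Without _x_at, _s_at and _a_at probe sets 8 were higher. The median difference of the 62 was 0.46, and 52 of the 57 lay above 0. Among hydrolases 8 of 34 were higher. The cysteine protease gene Ctso was at 4.66 and 6.71, with 5.32 and 3.93 on the hairpin arrays. The fucosidase gene Fuca2 was at 7.92 and 9.82, with 7.22 and 5.59, though another of its probe sets differed by 0.13. Gaa, which degrades glycogen (9.80 and 11.34), Dpp7 (9.51 and 11.03) and Naglu, which degrades heparan sulfate (7.52 and 8.89), followed, and Arsa, Ctsa and Hexa differed by 1.11 to 1.19. For Ctsa another probe set differed by 0.03.

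Among lysosomal membrane genes 5 of 17 were higher. The calcium channel gene Mcoln1 was at 9.39 and 10.84, with 8.51 and 9.01 on the hairpin arrays, and the cystine transporter gene Ctns at 6.36 and 7.81. Creg1 (11.41 and 12.82) and the proton pump subunit Atp6v0b (10.78 and 12.04) were higher by 1.41 and 1.26. Cd68, a lysosomal membrane protein also used as a macrophage marker, was at 5.93 and 8.0, with 6.16 and 6.88 on the hairpin arrays. Of 12 measured macrophage and blood cell markers 7 reached the floor, 4 with a difference above 0 and 3 below 0. Cd68 was the 1 called higher, and Cd14 was lower (7.04 and 5.75). Ptprc (3.94 and 3.72), Adgre1 (3.85 and 4.03) and Itgam (4.02 and 4.13) were under the floor on both arrays. The factor gene Mitf, whose family drives lysosomal genes, was at 6.79 and 8.16, and the autophagy receptor gene Sqstm1 at 11.29 and 12.63. TCACGTGA, the E-box at the centre of the CLEAR motif that this family binds, was in 6 of 56 lysosomal promoter windows (10.7%), the called genes Dpp7 and Mcoln1 among them, and in 208 of all 14452 (1.44%). Over all called genes with a window it was in 7 of 316 higher ones (2.22%) and 1 of 228 lower ones (0.439%).

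Genes of the FoxO program, known to rise when growth factor signalling falls, were also listed after the values were seen. Of 21 measured 7 were higher and 1 lower, with a median of 0.45, but 2 were higher when the probe sets of a gene were averaged. Crebrf was at 7.46 and 9.38 (another probe set differed by 0.76), the PI3-kinase inhibitor gene Pik3ip1 at 6.06 and 7.76 (another at 0.50), and the insulin receptor gene Insr at 7.69 and 9.04. Tsc22d3 (1.27, with -0.21 for another probe set), Hbp1 (1.07), Deptor (1.06) and Klf9 (1.05) were nearer to the threshold. Ccnd1, the cyclin of early cell cycle entry, was lower at 10.20 and 9.03, with 10.66 and 10.16 on the hairpin arrays.

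The remaining genes among the 15 largest higher differences belong to no single list. Capg, which caps actin filaments, led with 8.32 on the untreated and 11.06 on the vector array, and stood at 9.98 and 10.17 on the hairpin arrays. Its other probe set differed by 2.26. Ppargc1a, the coactivator of mitochondrial biogenesis, was at 4.19 and 6.84, with 3.96 and 3.78 on the hairpin arrays, and its other probe sets differed by 1.76 to 3.44. Both genes were thus seen with more than 1 probe set.

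Mgst3, a glutathione transferase of membranes, was at 9.68 and 12.14, with 9.89 and 7.90 on the hairpin arrays. Rgs2, which shuts off Gq signalling, was at 6.38 and 8.76 (6.45 and 5.13), Btbd11 at 4.88 and 7.35 (4.29 and 3.53), Reps2 at 4.66 and 7.05 (4.09 and 5.84) and Zc3h6 at 5.12 and 7.35 (4.45 and 5.15). Rnf157, a ubiquitin ligase, was at 6.16 and 8.52, and Ptger3, a prostaglandin E receptor, at 3.51 and 5.78. Apart from Rgs2, other probe sets of these genes gave smaller differences: -0.11 to 0.68 for Rnf157, and 1.37 and, for a dim one, 0.48 for Btbd11. Dim ones differed by 0.47 for Mgst3, 0.39 for Reps2, 0.33 for Zc3h6 and 0.04 for Ptger3. Other probe sets of Rgs2 differed by 1.68 and 2.53, and a dim one by -0.02. Ptger3 was equally high, at 5.78, on the array labelled Mical2 hairpin.

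Extracellular matrix genes were the list with the most lower genes. Of 76 listed, 70 were measured and 57 reached the floor. Of these 28 were lower and 0 higher, against 2.57% and 3.26% of all tested genes, and the median difference of the 70 was -0.56. Differences below 0 were seen for 50 of the 57. The median level of the 70 was 8.84 on the untreated array and 7.90 with the vector, and 8.29 and 7.22 on the hairpin arrays.

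Among fibrillar collagens, the main tensile fibres of connective tissue, 5 of 7 were lower. Col3a1 was at 13.29 and 10.30, a difference of -2.99, with 13.25 and 10.79 on the hairpin arrays. Col1a2 was at 14.49 and 11.64, with 14.06 and 6.19, and another of its probe sets differed by -4.04. Col1a1 (12.99 and 10.95), Col5a2 (13.92 and 12.66) and Col5a1 (11.53 and 10.36) were the others. For these 5 genes the array labelled Mical2 hairpin was above the vector array, and so was the array labelled Mical3 hairpin except for Col1a2.

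Of 14 other collagens 7 were lower. Col8a1, a short-chain collagen of vessel walls, was at 9.09 and 4.47, a difference of -4.62, and at 7.51 and 10.03 on the hairpin arrays. Its other probe sets differed by -3.01 and, for a dim one, -0.63. Its partner chain Col8a2 was at 9.73 and 6.79, with 4.60 and 4.14. Col12a1 was at 9.18 and 6.67, with -0.85 for another probe set. The basement membrane chains Col4a1 (12.55 and 11.20) and Col4a2 (10.14 and 9.04) and the beaded filament chains Col6a2 (12.14 and 10.93) and Col6a1 (11.68 and 10.59) were lower by 1.09 to 1.35.

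Of 12 other basement membrane genes 3 were lower. The laminin chain Lamb1 was at 10.73 and 7.87, with 10.90 and 11.24 on the hairpin arrays and -1.27 for another probe set. Nid2 (7.58 and 4.18, with 8.33 and 6.24) and Nid1 (6.06 and 4.49, with 4.34 and 7.06) encode the nidogens that link laminin to collagen. Both nidogens were under the floor with the vector.

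Matrix glycoproteins were lower in 8 of 17. Postn, periostin, was at 8.92 and 5.56, with 8.32 and 5.22 on the hairpin arrays. Igfbp7 was at 11.49 and 9.09, with 12.24 and 13.00, but another of its probe sets, at 6.62 and 6.93, differed by 0.31. Emilin1 was at 7.68 and 5.52 (-0.51 for another probe set), Mgp, an inhibitor of calcification, at 7.75 and 6.0, and Fbn2 at 5.75 and 4.16. Fn1, fibronectin, was at 13.38 and 12.21, and Fbln5 and Vcan differed by -1.26 and -1.15.

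Among leucine-rich proteoglycans, which bind collagen fibrils, 3 of 7 were lower. Fmod, fibromodulin, had the second largest difference of all lower genes, 10.63 against 5.89, with 8.72 and 4.80 on the hairpin arrays, and its other probe sets differed by -2.49 to -4.09. Dcn, decorin, was at 12.36 and 10.52, with 12.27 and 12.79, and Ogn at 10.40 and 9.19. Of 13 crosslinking and hydroxylation enzymes 2 were lower, Lox by 1.02 and P4ha1 by 1.0. Matrix proteases were lower in 4 of 20, Adam12 (8.16 and 5.01), Adamts5 (9.65 and 6.95), Adam19 (8.63 and 6.58) and Adamts1 (9.29 and 7.31), and higher in 1, the collagenase gene Mmp13 (7.42 and 8.47).

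**Figure D4:**
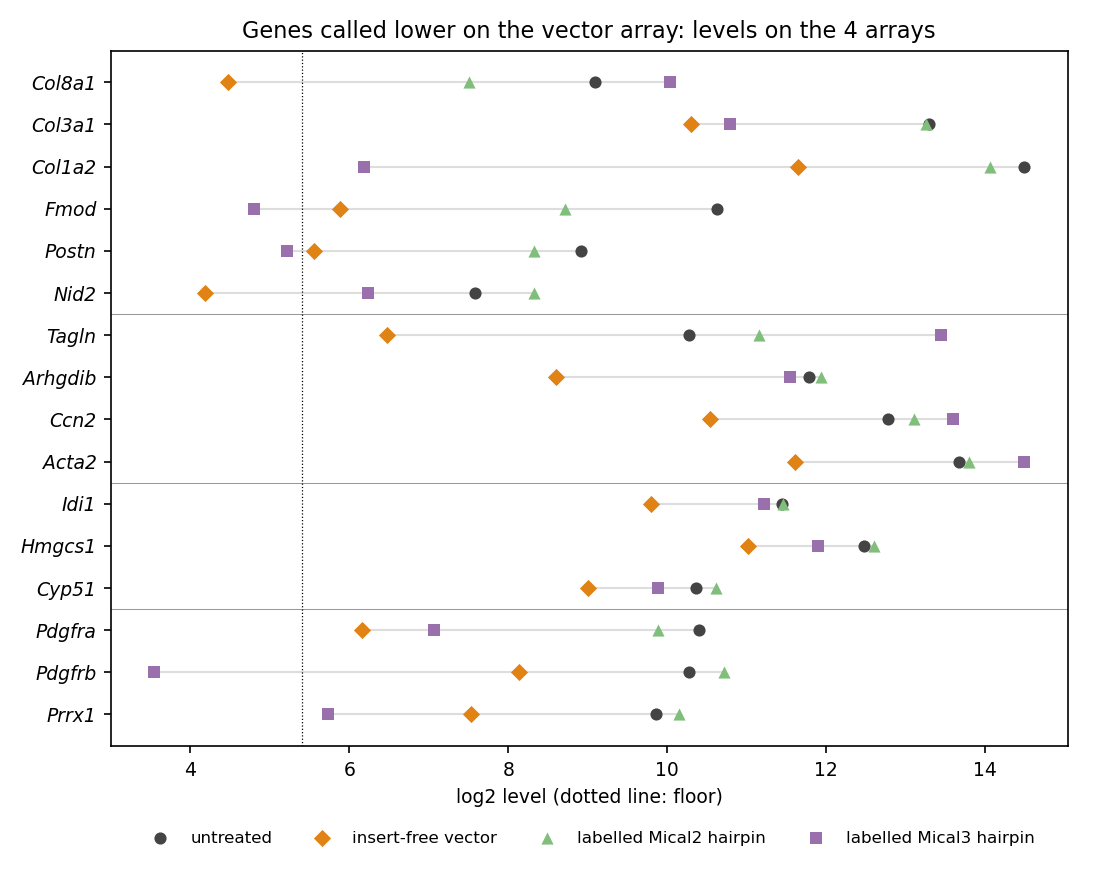
Log2 levels of 16 genes called lower, on each of the 4 arrays (1 array per group): matrix genes, SRF and MRTF targets, sterol enzymes, and receptor and mesenchymal genes, from top to bottom. The vector array (orange diamonds) is below the untreated array (dark circles) for each gene, and the array labelled Mical3 hairpin is below the vector array for Col1a2, Fmod, Postn, Pdgfrb and Prrx1.

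Of 44 measured SRF and MRTF targets 39 reached the floor, 8 were lower and 0 higher, and 34 of the 39 were below 0. The median difference was -0.45. Tagln, the smooth muscle actin-bundling protein, was at 10.27 and 6.47, a difference of -3.80, with 11.16 and 13.45 on the hairpin arrays. Acta2, smooth muscle actin, was at 13.67 and 11.61, with 13.80 and 14.49. The vector array was thus the lowest of the 4 for both, and both hairpin arrays were above the untreated level.

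Ccn2, a secreted matricellular factor, was at 12.78 and 10.54, with 13.10 and 13.59 on the hairpin arrays. Arhgdib was at 11.78 and 8.60, with 11.93 and 11.54. Actg2 (5.82 and 3.96), the collagen receptor gene Itga1 (6.47 and 4.81), Thbs1 (10.73 and 9.16) and the focal adhesion gene Zyx (10.02 and 8.86) were the others. Targets that were not called included Myh9 at 13.59 and 13.25, Actn1 at 13.18 and 12.96, and Tpm2 at 12.46 and 12.47. The CArG box was searched in its strict form only: CC, a fixed run of A or T alone, and GG. It was in 9 of 37 listed promoter windows (24.3%) against 197 of all 14452 (1.36%). Over all called genes with a window it was in 7 of 316 higher ones (2.22%) and 4 of 228 lower ones (1.75%). It was in 0 of the 4 called genes of the list with a window, Arhgdib and Acta2 among them. That says only that the strict form is not in this window. The Acta2 window does hold ccctatatgg and ccttgtttgg, in which a base of the run is not A or T. Such looser forms were not counted.

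Enzymes of sterol synthesis were lower in 7 of 17, all of which reached the floor, and higher in 0. The median difference was -0.85, and 16 of the 17 were below 0. Idi1, which interconverts the isoprene units, was at 11.45 and 9.79, with 11.46 and 11.22 on the hairpin arrays. Hmgcs1, an early step that makes HMG-CoA, was at 12.48 and 11.02, with 12.60 and 11.90. Cyp51, which removes a methyl group from lanosterol, was at 10.36 and 9.01, with 10.61 and 9.88. For these 3 genes the vector array was the lowest of the 4.

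Sqle, a rate-limiting oxygenase (10.88 and 9.63), Nsdhl (9.86 and 8.69), Msmo1 (10.49 and 9.38) and Mvk (8.51 and 7.48) completed the 7. The regulators and uptake genes were divided. Of 10 measured, 9 reached the floor, 4 with a difference above 0 and 5 below 0. Differences of the 10 ran from -0.72 to 1.26. The 1 called was Srebf1, higher at 9.81 and 11.07, with 9.61 and 9.75 on the hairpin arrays. Srebf2 was at 9.71 and 9.53, and the exporter gene Abca1 at 6.46 and 7.42. Of 15 fatty acid synthesis genes 1 was lower, Elovl6 (9.20 and 7.42), and of 13 lipid uptake and storage genes 2 were, Lipg (6.52 and 5.34) and Fabp5 (13.22 and 12.05).

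The promoter of Hmgcs1, at chr13:119690101-119690400 on the plus strand, is shown as the called enzyme whose window held a sterol regulatory element, TCACNCCAC, marked by capitals.
Hmgcs1: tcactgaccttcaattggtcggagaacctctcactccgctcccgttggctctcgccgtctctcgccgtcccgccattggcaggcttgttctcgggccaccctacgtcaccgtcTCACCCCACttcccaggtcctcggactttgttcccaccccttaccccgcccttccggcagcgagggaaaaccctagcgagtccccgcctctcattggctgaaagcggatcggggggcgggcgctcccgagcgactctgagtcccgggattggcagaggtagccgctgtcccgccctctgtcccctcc
The match begins at base -137 from the start site. It was the only one among 22 measured sterol genes with a window, and 171 of all 14452 windows held the element (1.18%). Over all called genes with a window the element was in 1 of 316 higher ones (0.316%) and 6 of 228 lower ones (2.63%). The window of Idi1 held none.

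Of 16 vascular growth factor receptors 3 were lower and 0 higher. Pdgfra was at 10.40 and 6.16, a difference of -4.24, with 9.88 and 7.07 on the hairpin arrays, and its other probe sets differed by -0.86 and -0.52. Pdgfrb was at 10.28 and 8.13, with 10.71 and 3.55, and another probe set differed by -1.03. Nrp1, a co-receptor of VEGF and semaphorins, was at 10.62 and 9.61. None of 18 vascular growth factor ligands was called, with Pdgfb lowest at -0.96 and Vegfb highest at 0.88.

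Of 22 guidance genes 6 were lower. Slit2, a repellent ligand of Robo receptors, was at 9.59 and 5.11, with 7.18 and 10.29 on the hairpin arrays, and Slit3 at 8.96 and 6.70. Dim probe sets of Slit2 differed by -0.50 and -0.33. Efnb2, the ephrin of arteries, was at 10.98 and 9.44. Ntn1, Efnb1 and Sema3a differed by -1.12, -1.07 and -1.01, and another probe set of Efnb1 by -2.60. No gene of 13 in the Notch list was called.

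In the TGF-beta family 3 of 18 ligands and receptors were lower and 1 higher. Bmp2 was at 6.55 on the untreated array and 3.06 with the vector, and at 3.26 and 3.45 on the hairpin arrays, so all 3 arrays of transduced cells were under the floor. Inhbb, an activin subunit, was at 10.22 and 6.80, with 10.13 and 11.22, but another of its probe sets differed by -0.30. Inhba was at 9.92 and 8.74, and Tgfb1 was higher at 5.24 and 6.26. None of 12 intracellular members and targets was called.

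Cdh11, a cadherin of mesenchymal cells, had the largest difference of all genes: 10.60 on the untreated and 4.68 on the vector array, with 5.45 and 10.64 on the hairpin arrays. Another of its probe sets differed by -2.89. The homeobox gene Prrx1 was at 9.86 and 7.53, with 10.15 and 5.73 on the hairpin arrays and other probe sets at -2.39 to -0.43. These were the 2 of 14 mesenchymal transition genes that were lower. Of 15 integrins Itga1 and Itgb1 (10.70 and 9.56) were lower, and of 20 YAP and TEAD targets Ccn2 was.

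Other genes with large negative differences were Cemip, a hyaluronan-degrading protein (9.12 and 5.34, with 9.74 and 7.62 on the hairpin arrays), Mpzl2, an adhesion protein (9.04 and 5.38, with 4.46 and 9.51), and Tmem108 (8.70 and 5.11, with 8.36 and 9.29). Cemip is uncertain, since another of its probe sets was at 5.09 and 5.43, a difference of 0.34. For Mpzl2 another probe set differed by -3.64 and a dim one by -0.57, and for Tmem108 2 others differed by -1.60 and -0.33. Igfbp2, a carrier of insulin-like growth factors, was at 7.46 and 4.06, with 4.08 and 4.12 on the hairpin arrays. Igf1 was at 9.01 and 5.79, with 9.55 and 6.05, and another probe set differed by -4.35.

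Cell type markers were set beside these results. Of 38 measured endothelial identity genes 14 reached the floor and 0 were called, with a median difference of 0.01. Pecam1 (3.46 and 3.88), Cdh5 (4.50 and 3.95), Tek (4.19 and 4.21), Tie1 (4.22 and 4.22), Vwf (3.83 and 3.98), Emcn (3.90 and 3.65) and Cd34 (4.29 and 3.76), which define blood vessel endothelium, were under the floor on both arrays. The markers above it included Flt1 (7.73 and 7.76), Eng (7.31 and 7.54), Flt4 (9.18 and 8.90) and Pdpn (12.29 and 12.50), and the largest differences were those of Mcam (-0.80) and Nrp2 (0.76). Most markers of the labelled cell type thus did not reach the floor, those of blood vessel endothelium named first among them. The median level of the 38 was 5.1 on the untreated and 5.165 on the vector array. It was 8.26 and 6.605 for the fibroblast markers and 8.27 and 6.42 for the mesothelial markers described below. The other marker lists had medians of 4.905 to 5.35 on the untreated array.

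Of 12 fibroblast markers 7 reached the floor and 6 were lower: Pdgfra, Col3a1, Col1a2, Prrx1, Col1a1 and Dcn, with a list median of -1.21. Lum (4.08 and 3.50), Thy1 (4.72 and 4.84) and Fap (3.77 and 3.88) were under the floor on both arrays. Of these, 4 of 6 are also in the matrix list, so the counts share members, and the part of a change in cell makeup was not tested. Of 12 pericyte and smooth muscle markers Pdgfrb and Acta2 were lower, and of 12 epithelial markers Krt8 (8.27 and 6.42) and Krt18 (5.85 and 4.84). Among 13 mesothelial markers, a list added after the values were seen, 8 were lower, led by Gpm6a (10.73 and 7.35, with 11.30 and 11.56 on the hairpin arrays), Upk3b (13.09 and 10.73) and Upk1b (12.15 and 9.90), then Lrrn4, Krt7, Krt8, Bnc1 and Krt18. None of 8 adipocyte and 9 neural markers was called.

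The lists of DNA replication and mitosis held few called genes. Of 24 DNA replication genes 0 were called, and their median was 0.13, with Tyms lowest (6.80 and 5.98) and Cdt1 highest (12.43 and 13.20). Of 23 mitosis genes 1 was lower, the kinase gene Plk1 (9.86 and 8.73), but 22 of the 23 were below 0 and the median was -0.45, for example Ccna2 at 11.27 and 10.50 and Cenpa at 12.09 and 11.22. Of 19 antioxidant genes Gstm1 was higher (9.08 and 10.39, with 10.18 and 6.48 on the hairpin arrays), and Gclm (10.99 and 9.71) and Hmox1 (10.31 and 9.30) were lower. P4ha1 was the 1 called gene of 19 in the hypoxia and glycolysis list. Klf4 was the 1 of 28 immediate early genes that was higher (10.61 and 11.87).

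Many genes have more than 1 probe set, which gives a check within the array pair, though not one of biological spread. Of 144 higher genes with another probe set at the floor, 132 (91.7%) had all of them above 0, and for 48 (33.3%) all passed a difference of 1. Of 145 lower genes 132 (91.0%) had all below 0, and for 73 (50.3%) all passed -1. Of 5038 genes not called, 3072 (61.0%) had all probe sets on the side of the one used. Differences of genes not called are under 1 by the rule, so their signs differ more easily. That share is therefore no background for the called genes. From the disagreement of 8798 pairs of probe sets, the SD of the vector-minus-untreated difference of 1 probe set was estimated at 0.28.

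**Figure D5:**
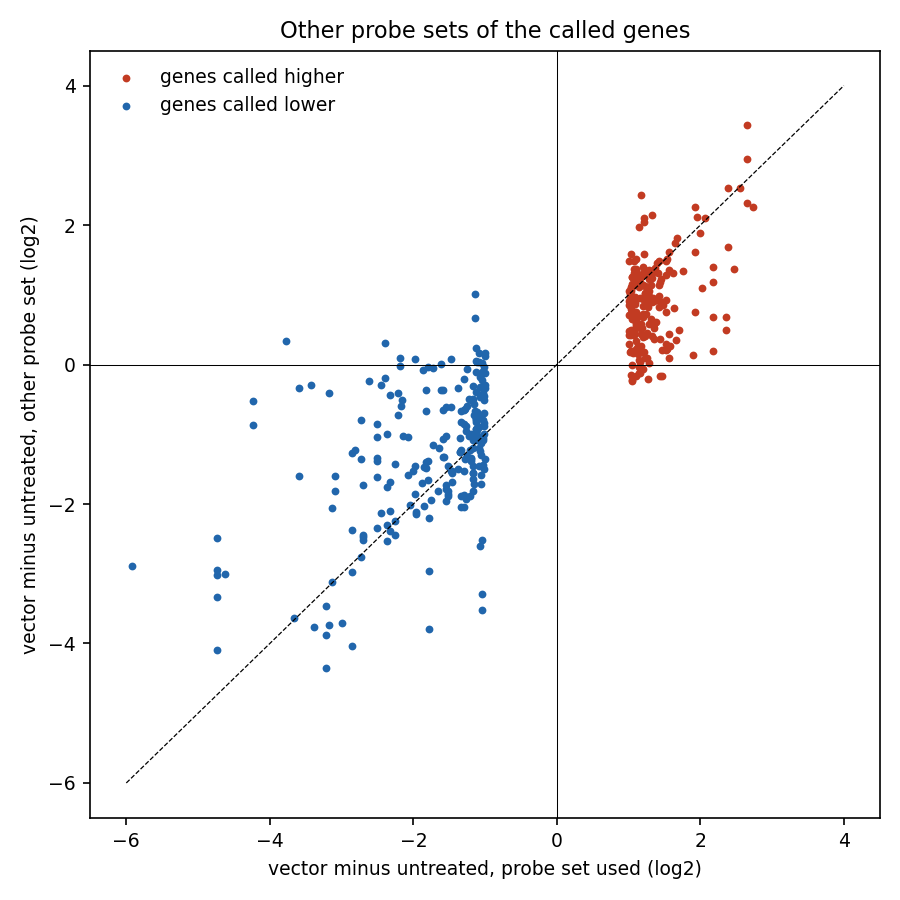
Difference of log2 levels, vector minus untreated, for the probe set used (horizontal) and for each other probe set at the floor (vertical) of called genes; red points are genes called higher and blue points genes called lower. Most points lie on the same side of 0 on both axes, and many other probe sets have smaller differences than the one used, below the dashed line of equality for higher genes and above it for lower genes.

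Just inside the threshold lay 2310047K21Rik (4.49 and 5.49), 9330159F19Rik (6.46 and 5.46) and Ak5 (8.51 and 7.51), and just outside it Aox1 (6.56 and 7.55), Ccnyl1 (9.92 and 8.93) and Cdca2 (8.59 and 7.60). In all, 20 genes differed by exactly 1.0 and 19 by 0.99.

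Facts of the arrays as a whole bear on every value above. The medians of the 4 arrays ran from 5.40 to 5.44, and the correlation across probe sets was 0.988 between the vector and untreated arrays. The vector array had the lowest correlations with the hairpin arrays, 0.981 and 0.978, against 0.99 and 0.987 for the untreated array. Probes for transcripts that serve as hybridisation controls differed by 0.16 at most, and mouse Gapdh by 0.07 at most. Probe sets for Bacillus transcripts used as labelling controls were lower on the vector array for phe and dap at the 5′ end, the middle and the 3′ end. At the 5′ end phe was at 7.20 on the untreated and 5.49 on the vector array, with 7.83 and 7.54 on the hairpin arrays, and dap at 7.13 and 6.26, with 7.56 and 7.19. In the middle phe differed by -0.91 and dap by -0.55, and at the 3′ end they differed by -0.50 and -0.31. The 5′ probe set of thr was at 4.98 and 4.50, and that of lys at 7.48 and 7.68. The labels do not say whether such transcripts were added, and the part of labelling in the results was not tested.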

How the data were processed

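The authors deposited 1 log2 expression value per probe set and array, computed with RMA (background correction, quantile normalization and probe summary) per the submitters' processing notes; its version is not given in the sources used here. Per the labels, biotin-labelled complementary RNA of 3 pooled replicates was hybridised to each of 4 arrays. The deposited values were used unscaled. Of 45101 probe sets, 64 were controls, 34945 had 1 gene symbol in the platform annotation, 932 had several and 9160 had none. Of those with 1 symbol, 34741 were matched through Entrez identifiers to RefSeq (GRCm38.p6), whose symbols were then used. Where a gene had several probe sets, the one of highest mean level was used. With 1 array per group no test was possible, so genes were called by size (a difference of at least 1, higher level at least 5.41), and the number of arrays limits the precision. The code of the rule was run on simulated arrays, with noise set from the probe sets of this array pair. That run holds no spread between replicates or arrays, so it cannot show how many of the calls are right.

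The members and the 45 gene lists were chosen with earlier results of these data known, and 7 lists (lysosome, growth factor withdrawal, IGF axis, Wnt pathway, clock, noncoding host genes, mesothelial markers) were added after the values were seen. Named genes are the first 15 higher and 15 lower by absolute difference, skipping unnamed predicted genes, called members of each list, up to 2 members of largest difference in lists without a call, and Mical1 to Mical3. Other probe sets at or above the floor are given where the sign differs or the difference differs by more than 1, and for some further genes; of dim ones, under the floor on both arrays, a part is printed. Not every member the rule allows is printed. Promoters came from RefSeq, 1 per gene, and those without a motif match are not printed. Python 3.11.15, numpy 2.4.6, pandas 2.3.3, statsmodels 0.14.6 and matplotlib 3.10.9 were used. The 12 alternatives changed the size of difference, the floor, the probe set of a gene, the normalization, low values and the agreement of probe sets.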

Additional observations from a re-analysis of the deposited data

How the results depend on the processing

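No paired analysis was possible because each group has 1 array. A difference of at least log2 of 1.5 gave 1222 higher and 862 lower genes, with 39 antiviral effectors higher, 16 SRF and MRTF targets lower and 12 sterol enzymes lower. At log2 of 3 there were 76 higher and 119 lower genes, with 6 antiviral effectors and 3 stress response genes higher, and 15 matrix genes and 1 sterol enzyme lower. A floor at the 75th percentile of the table, 8.01, left 251 and 195. With all probe sets of a gene averaged, 5 SRF and MRTF targets were lower rather than 8, and the cause was not tested; the changed thresholds and floor alter the counts by their construction. The other settings were no floor, the most variable probe set, no _x_at, _s_at and _a_at probe sets, and same-sign probe sets. Repeated quantile normalization, centring, a loess fit and 16 added on the linear scale were the rest. Under all of these the counts of these 7 results stayed within 1.5 times the reported ones. The loess fit gave 335 higher and 339 lower genes. No median of the 14 lists and no difference of the 30 leading genes changed sign under any of the 12 alternatives. The changed sizes of difference, the floors and the same-sign setting leave these values as they are by construction. Only the other settings could therefore have changed a sign. Among smaller lists, averaging took the higher sensors from 5 to 2 and the growth factor withdrawal genes from 7 to 2. Dropping _x_at, _s_at and _a_at probe sets took the sensors to 3 and the lysosome genes from 15 to 8. Without those probe sets Ptger3 differed by 0.04, Rnf157 by 0.50 and Mpzl2 by -0.57, and the set used for each of these genes ends in _a_at. RMA is known to compress differences of dim probe sets, which was not tested here. A pool of 3 replicates on 1 array gives no error for any level.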

Other observations

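Several other groups held called genes; the clock, noncoding, Wnt and IGF lists were added after the values were seen. Of 18 clock genes 4 were higher and 0 lower, with a median of 0.39: Rora (5.85 on the untreated and 7.41 on the vector array, with 0.44 and 0.09 for other probe sets), Dbp (7.56 and 8.85), Ciart (6.75 and 7.85) and Nr1d2 (9.35 and 10.35). Dbp, Ciart and Nr1d2 are known output genes of the circadian oscillator, while the core genes Arntl (7.22 and 7.32), Clock (9.41 and 9.30) and Cry1 (8.36 and 8.32) were near level. Of 14 noncoding and snoRNA host genes 5 were higher, with a median of 0.61. Neat1, the RNA scaffold of paraspeckles, was at 9.52 and 11.70, with 9.52 and 10.27 on the hairpin arrays, and another of its probe sets differed by 0.19. Snhg7, Snhg17, Snhg12 and Snhg4 were higher by 1.02 to 1.46.

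Of 29 Wnt pathway genes 7 were lower and 0 higher. Wnt5a, a ligand of noncanonical signalling, was at 8.37 and 5.28, with 7.53 and 8.77 on the hairpin arrays and -1.60 and -1.82 for other probe sets, and Rspo1, an amplifier of Wnt signalling, at 7.71 and 5.05. Dact1, Wnt4, Wnt11, Fzd1 and Lef1 differed by -1.13 to -1.65. In the 14 genes of the IGF axis 4 were lower (Igfbp2, Igf1, Igfbp7 and Igf2r) and Insr was higher. Of 22 imprinted genes Impact was higher (9.55 and 10.72) and Peg3 (10.35 and 7.65, with 8.03 and 11.81 on the hairpin arrays) and Igf2r (9.62 and 8.59) were lower. Of 29 positional genes of the Hox type 1 was called, Hoxb5 (5.16 and 6.16). Of 6 measured Y-linked genes only 1 reached the floor on the vector or untreated array, and 0 were called. Their differences ran from -1.89 to 0.12. The median level of the 6 was 4.35 on the untreated and 3.925 on the vector array, with 4.70 and 6.66 on the hairpin arrays. The cause of the higher level on the array labelled Mical3 hairpin was not tested.

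The comparisons above leave out probe sets that carry several gene symbols or none. Of 2696 such probe sets that reached the floor 83 were higher and 62 lower, 5.38% in all.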
